A study of Homo sapiens with 4 samples.

Results

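Aminoacyl-tRNA synthetases join each amino acid to its tRNA, and their transcripts were compared between LNCaP cells that overexpress RRM2 (LNCaP-RRM2) and LNCaP cells carrying an empty vector (LNCaP-EV). The 38 genes described here were taken by symbol from the 17141 genes of the deposited count table. They comprise 20 genes of cytosolic enzymes, 16 genes of mitochondrial enzymes and the scaffold genes AIMP1 and AIMP2, and all 38 passed the filter on low counts. Both groups derive from the same androgen-responsive human prostate cancer line, and each was sequenced as 2 libraries of total RNA. In LNCaP-RRM2, RRM2, the small subunit of ribonucleotide reductase, was carried by a lentiviral vector and the stable line was kept under puromycin. The labels describe the LNCaP-EV libraries as empty vector cells. Whether either line was 1 clone or a pool, and whether both libraries of a line were grown as separate cultures, is not stated, so p-values measure the spread between these libraries, which may be technical.

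Cells have separate sets of these enzymes for the cytosol and for the mitochondrion, and both sets are encoded in the nucleus. The cytosolic enzymes charge the tRNAs used by the ribosomes that make most cellular proteins. The mitochondrial enzymes charge the tRNAs that serve the few proteins encoded by mitochondrial DNA. GARS and KARS each encode both a cytosolic and a mitochondrial form, and QARS has no mitochondrial counterpart because mitochondrial glutaminyl-tRNA is made by an indirect route through EARS2. Of the cytosolic genes, 8 (DARS, EPRS, IARS, KARS, LARS, MARS, QARS and RARS) encode enzymes of the multisynthetase complex, a large assembly held together by AIMP1, AIMP2 and EEF1E1. Many cytosolic synthetase genes are known targets of ATF4, the transcription factor of the amino acid and integrated stress responses, which acts with C/EBP family partners on a composite DNA element.

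The composite element was searched for as TGATGNAA on both strands in the 250 bases before the RefSeq start of each gene (GRCh38.p14). Promoters were matched for 16 of the 20 cytosolic genes, 14 of the 16 mitochondrial genes and both scaffold genes. The letters were present in 2 of the 16 cytosolic promoters (12.5%), in 1 of the 14 mitochondrial promoters and in 350 of 15843 protein-coding promoters of the same length (2.21%). The 3 matches among the synthetase genes were in AARS, IARS and YARS2, and they are shown with the matches in ASNS and CHAC1, which are well-known ATF4 targets and were the matches among 23 promoters of a list of ATF4 response genes. Each sequence is written 5′ to 3′ on the strand of its gene with the match in capitals, where TTGCATCA is the element read on the opposite strand. The match lay 187 to 180 bases before the start of AARS (chr16:70289656-70289723, minus strand), 13 to 6 before that of IARS (chr9:92293698-92293721, minus strand), 197 to 190 before that of YARS2 (chr12:32756057-32756124, minus strand), 68 to 61 before that of ASNS (chr7:97872458-97872487, minus strand) and 209 to 202 before that of CHAC1 (chr15:40953232-40953299, plus strand). The stretches of IARS and ASNS are shorter because the deposited gene spans already include them.
AARS: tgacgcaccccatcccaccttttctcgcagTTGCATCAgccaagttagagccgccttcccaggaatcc
IARS: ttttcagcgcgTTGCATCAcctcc
YARS2: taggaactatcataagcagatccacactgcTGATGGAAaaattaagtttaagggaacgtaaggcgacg
ASNS: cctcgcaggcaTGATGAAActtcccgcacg
CHAC1: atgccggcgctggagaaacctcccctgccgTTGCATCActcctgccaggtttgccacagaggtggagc
AARS, IARS and CHAC1 held the identical 8 letters. A match describes the letters only, and GARS, SARS and CARS, which had some of the lowest values below, had none in this window.

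Library totals ranged from 26601061 to 32601519 counts, and each member had at least 203 counts in each library. Levels are given as CPM, the counts scaled to a common TMM-adjusted library total. RRM2 was at 318.3 and 342.6 CPM in LNCaP-EV and at 9291 and 8979 CPM in LNCaP-RRM2. A gene was called at a Benjamini-Hochberg adjusted p below 0.05 in edgeR's quasi-likelihood test and a fold change above 1.5, and a fold change is the LNCaP-RRM2 level divided by the LNCaP-EV level. Of 15162 genes tested, 1207 (7.96%) were called lower and 1899 (12.5%) higher, and the median log2 fold change was -0.03. The share of calls that were higher was 61.1%, against 72.4% when libraries were scaled by total counts, 75.0% with upper-quartile factors, 71.6% with a stricter filter, 51.4% with the GC trend of each library removed and 42.3% with no fold limit. Leaving out each library moved it from 56.3% to 74.9%. The LNCaP markers were all detected. Markers of fibroblasts (4 of 6 tested), endothelium (1 of 5) and blood cells (1 of 6) were summed. In LNCaP-EV the sums were 12.4 and 8.35 CPM, 8.64 and 6.62 CPM, and 5.79 and 5.65 CPM. In LNCaP-RRM2 those sums were 35.9 and 26.96 CPM, 9.66 and 11.3 CPM, and 24.4 and 23.2 CPM. COL1A1, COL3A1, PDGFRB and CD68 were called higher, at log2 fold changes of 1.67, 0.92, 1.65 and 2.06. LUM and VWF were not called. The part of these markers in the results was not tested.

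Cytosolic synthetase transcripts were lower in LNCaP-RRM2. Of the 20 genes, 11 were called lower against 7.96% of all genes, and 17 were lower at the adjusted p alone against 24.4% of all genes. In 17 of the 20, both LNCaP-RRM2 libraries lay below both LNCaP-EV libraries, an order shown by 40.9% of all genes. The median log2 fold change of the 20 was -0.60, with a range from -1.63 for GARS to -0.0017 for QARS. The 20 genes together took 0.631% and 0.665% of the counts in the LNCaP-EV libraries, against 0.398% and 0.414% in LNCaP-RRM2. None was called higher by edgeR, DESeq2 or limma-voom, and none was higher at an unadjusted p below 0.05 in the main fit. Of all genes, 17.8% were higher at the adjusted p alone. Without the first or the second LNCaP-RRM2 library, 8 and 9 of the 20 were called lower, and the genes lower at the adjusted p alone, mitochondrial and scaffold genes included, no longer passed it. In bulk RNA, less transcript per cell cannot be told apart from fewer cells with a high level.

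**Figure D1:**
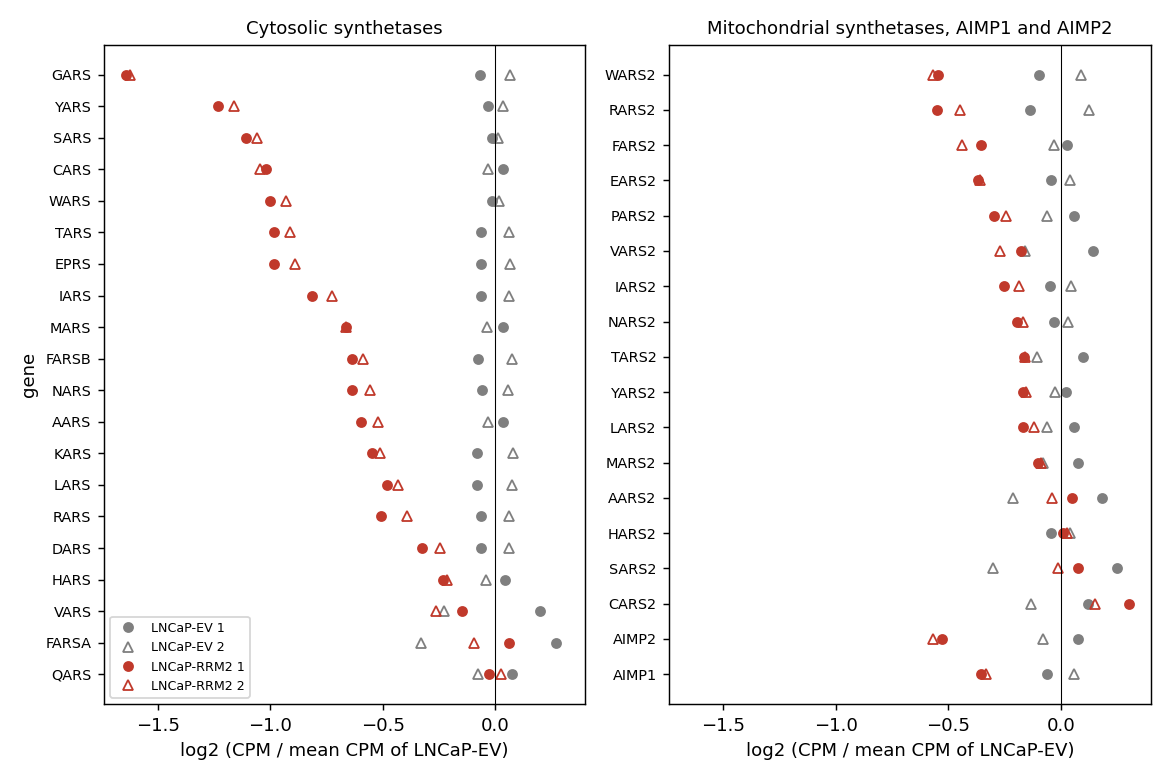
Level of each gene in each of the 4 libraries as log2 of its CPM over the mean CPM of LNCaP-EV (0 line), with cytosolic genes on the left and mitochondrial and scaffold genes on the right, ordered by fold change. The LNCaP-RRM2 points lie left of both LNCaP-EV points for 17 of 20 cytosolic and 12 of 16 mitochondrial genes, against 40.9% of all genes. The LNCaP-RRM2 points reach farther left in the cytosolic panel.

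GARS, the glycyl-tRNA synthetase, had the lowest fold change of all members. It was at 490.9 and 538.0 CPM in LNCaP-EV and at 164.8 and 167.0 CPM in LNCaP-RRM2. It therefore fell by 1.63 on the log2 scale (SE 0.07), a 3.10-fold lower level (edgeR adjusted p = 0.00132). GARS lies on the plus strand of chromosome 7 (GRCh38.p14 30594735 to 30634033), and its deposited span is the same.

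YARS, SARS and CARS, which charge tyrosine, serine and cysteine tRNAs, were each more than 2-fold lower. YARS was at 344.8 and 361.6 CPM in LNCaP-EV and at 150.5 and 157.9 CPM in LNCaP-RRM2 (log2 fold change -1.20, SE 0.07, edgeR adjusted p = 0.00176). SARS was at 416.9 and 424.6 CPM in LNCaP-EV and at 195.0 and 202.1 CPM in LNCaP-RRM2 (-1.08, SE 0.06, edgeR adjusted p = 0.00176). CARS was at 123.0 and 117.6 CPM in LNCaP-EV and at 59.3 and 58.3 CPM in LNCaP-RRM2 (-1.03, SE 0.07, edgeR adjusted p = 0.00217). In each of the 3 genes the gap between the groups was many times the gap within either group. The genes lie apart in the genome, with YARS (32775239 to 32817358, minus strand) and SARS (109213893 to 109238182, plus strand) on chromosome 1 and CARS on chromosome 11 (3000929 to 3057423, minus strand). The deposited spans of YARS and CARS overlap S100PBP and CARS-AS1, and reads from overlapping stretches cannot be assigned with certainty.

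WARS and TARS, the tryptophan and threonine enzymes, fell almost as far. WARS was at 222.2 and 227.4 CPM in LNCaP-EV and at 112.3 and 118.0 CPM in LNCaP-RRM2 (log2 fold change -0.97, SE 0.06, edgeR adjusted p = 0.00209). TARS was at 521.0 and 569.5 CPM in LNCaP-EV and at 275.3 and 289.7 CPM in LNCaP-RRM2 (-0.95, SE 0.07, edgeR adjusted p = 0.00246). WARS is also known as an interferon-inducible gene.

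The enzymes of the multisynthetase complex were lower by a smaller median. Of its 8 enzyme genes, 3 were called lower and 7 were lower at the adjusted p alone, with a median log2 fold change of -0.49. The other 12 cytosolic genes had 8 called lower, 10 lower at the adjusted p alone and a median of -0.78. The difference between these medians was not tested. Of all genes, 7.96% were called lower and 24.4% were lower at the adjusted p alone. EPRS, which joins glutamate and proline activities in 1 protein, was at 785.1 and 858.6 CPM in LNCaP-EV and at 415.1 and 443.0 CPM in LNCaP-RRM2 (-0.94, SE 0.08, edgeR adjusted p = 0.00257). IARS, the isoleucine enzyme, was at 528.1 and 575.5 CPM and then at 313.4 and 333.3 CPM (-0.77, SE 0.07, edgeR adjusted p = 0.00297). MARS, the methionine enzyme, was at 331.1 and 314.9 CPM and then at 204.0 and 203.9 CPM (-0.66, SE 0.06, edgeR adjusted p = 0.00293). In these 3 genes, both LNCaP-RRM2 libraries lay below both LNCaP-EV libraries, an order shown by 40.9% of all genes. MARS was not called with upper-quartile factors, with the stricter filter or without the first LNCaP-RRM2 library, and its deposited span overlaps DDIT3 and ARHGAP9, whose reads cannot be told apart from its own where counting ignores strand.

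FARSB and NARS lay just past the fold limit. FARSB, the beta subunit of the phenylalanine enzyme, was at 187.6 and 207.8 CPM in LNCaP-EV and at 127.0 and 131.4 CPM in LNCaP-RRM2 (log2 fold change -0.61, SE 0.08, edgeR adjusted p = 0.00440). NARS, the asparagine enzyme, was at 554.4 and 601.1 CPM in LNCaP-EV and at 371.9 and 393.1 CPM in LNCaP-RRM2 (-0.59, SE 0.07, edgeR adjusted p = 0.00436). Each kept its sign in all 14 alternatives that refitted the data, and each was called in 4 of them. Both lost the call when the second LNCaP-EV library or either LNCaP-RRM2 library was left out.

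A further 6 cytosolic genes were lower at the adjusted p alone. Their log2 fold changes in edgeR were -0.56 for AARS (alanine), -0.53 for KARS (lysine), -0.46 for LARS (leucine), -0.45 for RARS (arginine), -0.29 for DARS (aspartate) and -0.22 for HARS (histidine). In all 6, both LNCaP-RRM2 libraries lay below both LNCaP-EV libraries, an order shown by 40.9% of all genes. The deposited span of DARS overlaps DARS-AS1. AARS and KARS lay just outside the fold limit, at 1.47-fold and 1.44-fold lower.

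QARS, FARSA and VARS did not pass the test. QARS, the glutamine enzyme, was at 173.1 and 156.0 CPM in LNCaP-EV and at 161.3 and 167.5 CPM in LNCaP-RRM2 (log2 fold change -0.0017, SE 0.08, edgeR adjusted p = 0.987). FARSA, the alpha subunit of the phenylalanine enzyme, was at 141.2 and 93.4 CPM and then at 122.2 and 109.9 CPM (-0.02, SE 0.19, edgeR adjusted p = 0.951). VARS, the valine enzyme, was at 190.5 and 142.0 CPM and then at 149.8 and 138.4 CPM (-0.21, SE 0.14, edgeR adjusted p = 0.291). The LNCaP-EV libraries of FARSA and VARS differed from each other more than the group means did. The signs of QARS and FARSA changed with the scaling of the libraries, and without the first LNCaP-EV library FARSA was higher at the adjusted p alone, at a log2 fold change of 0.32.

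Calls were found in both structural classes of the enzymes. Class I enzymes share a Rossmann-type catalytic fold and class II enzymes an antiparallel fold. Among cytosolic genes, 5 of 9 in class I and 5 of 10 in class II were called lower, against 7.96% of all genes. The median log2 fold changes of the classes were -0.66 and -0.58. EPRS, which holds a domain of each class, was counted in neither. Without the second LNCaP-EV library or either LNCaP-RRM2 library, 3 class II genes and 4 or 5 class I genes were called, and with the GC trend removed 4 and 6. The difference between the classes was not tested.

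The 20 cytosolic genes were also divided by a list of 13 synthetase genes known as ATF4 targets. Of the 13, 10 were called lower and 12 were lower at the adjusted p alone, and their median log2 fold change was -0.94. Of the other 7, FARSB was called lower and 5 were lower at the adjusted p alone, with a median of -0.29. Over all genes, 7.96% were called lower and 24.4% were lower at the adjusted p alone. The 13 genes summed to 5321 and 5553 CPM in LNCaP-EV and to 2969 and 3088 CPM in LNCaP-RRM2, and the other 7 summed to 1189 and 1198 CPM and then to 934 and 955 CPM. The ratio of the summed levels was thus 0.557 in the 13 genes and 0.791 in the 7. AARS, LARS and VARS were the members of the 13 that were not called. The list was written with earlier results of these data known, so its counts are a description.

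**Figure D2:**
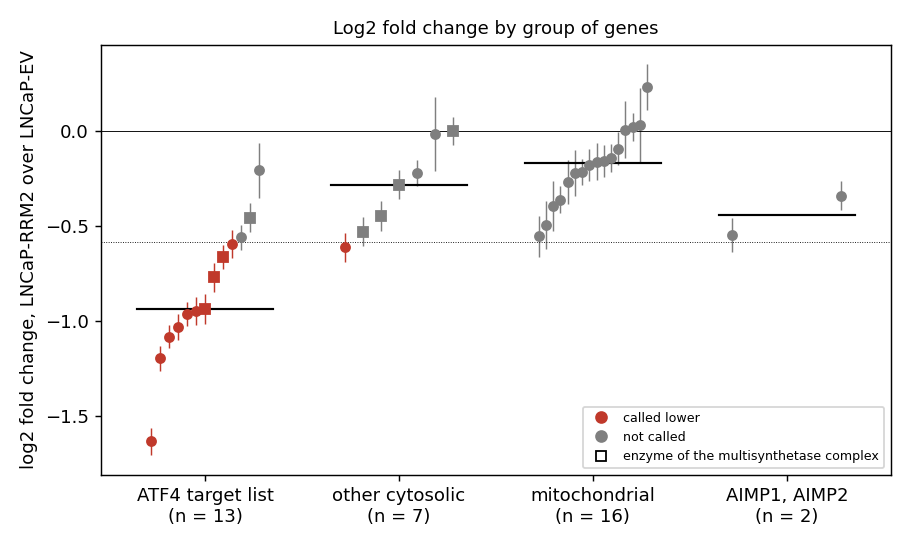
Log2 fold change of LNCaP-RRM2 over LNCaP-EV with its SE for each member, in 4 groups with the group median as a bar; squares mark enzymes of the multisynthetase complex, red marks genes called lower and the dotted line the fold limit of 1.5. The medians were -0.94 in the 13 listed ATF4 targets, -0.29 in the 7 other cytosolic genes and -0.17 in the 16 mitochondrial genes.

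The 16 genes listed as mitochondrial synthetases had no call. GARS and KARS, which also encode a mitochondrial form, were counted with the cytosolic genes, and GARS was called lower. Of the 16 genes, 4 were lower at the adjusted p alone, a share close to the 24.4% of all genes, and none was higher by that measure, against 17.8% of all genes. None was called in either direction by the main edgeR fit, DESeq2 or limma-voom. At an unadjusted p below 0.05, 5 were lower and none was higher, and the share of all genes by that measure was not counted. Without the first LNCaP-EV library, CARS2 and SARS2 were higher at the adjusted p alone, at log2 fold changes of 0.37 and 0.34. The median log2 fold change was -0.17, with a range from -0.56 to 0.23. Of the 16 genes, 12 were below 0, against 7852 of the 15162 genes tested. Both LNCaP-RRM2 libraries lay below both LNCaP-EV libraries in 12 of the 16 and above them in 1. The lower order was shown by 40.9% of all genes and the higher order by 5224 of 15162. The summed level was 985 and 964 CPM in LNCaP-EV, against 857 and 865 CPM in LNCaP-RRM2, a ratio of 0.883 against 0.599 for the cytosolic genes. The median of the cytosolic genes lay 0.43 below that of the mitochondrial genes on the log2 scale, and this distance stayed between 0.35 and 0.53 in 14 alternatives. The difference between the medians has no test of its own.

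Mitochondrial enzymes also had lower transcript levels per length. The median level was 94.4 CPM per kb of transcript for cytosolic and 17.1 CPM per kb for mitochondrial genes in LNCaP-EV. In LNCaP-RRM2 these medians were 58.2 and 15.3 CPM per kb. The levels in LNCaP-EV ran from 30.2 (HARS) to 223.6 (SARS) CPM per kb among cytosolic genes and from 5.96 (FARS2) to 73.3 (IARS2) CPM per kb among mitochondrial genes.

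The 4 mitochondrial genes that passed the adjusted p were WARS2, RARS2, EARS2 and IARS2. WARS2, the tryptophan enzyme, was at 31.5 and 36.0 CPM in LNCaP-EV and at 23.1 and 22.8 CPM in LNCaP-RRM2 (log2 fold change -0.56, SE 0.11, edgeR adjusted p = 0.0126). RARS2, the arginine enzyme, was at 26.95 and 32.3 CPM and then at 20.3 and 21.8 CPM (-0.50, SE 0.13, edgeR adjusted p = 0.0279). EARS2, the glutamate enzyme, was at 103.0 and 108.9 CPM and then at 82.2 and 82.7 CPM (-0.36, SE 0.07, edgeR adjusted p = 0.0124). For these 3 genes and for IARS2, both LNCaP-RRM2 libraries lay below both LNCaP-EV libraries, an order shown by 40.9% of all genes. IARS2, the isoleucine enzyme, was at 252.1 and 269.7 CPM and then at 219.3 and 229.6 CPM (-0.22, SE 0.07, edgeR adjusted p = 0.0497), close to the limit. WARS2 and RARS2 passed the fold limit too when the first LNCaP-EV library was left out.

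The mitochondrial partners of the called cytosolic genes had smaller fold changes. CARS2, the cysteine enzyme, was at 34.9 and 29.3 CPM in LNCaP-EV and at 39.6 and 35.7 CPM in LNCaP-RRM2 (log2 fold change 0.23, SE 0.12, edgeR adjusted p = 0.179), the highest value of all members. SARS2, the serine enzyme, was at 24.0 and 16.4 CPM and then at 21.3 and 20.0 CPM (0.03, SE 0.20, edgeR adjusted p = 0.907), and its deposited span overlaps MRPS12. YARS2, the tyrosine enzyme, was at 37.6 and 36.3 CPM and then at 32.9 and 33.2 CPM (-0.16, SE 0.09, edgeR adjusted p = 0.180). None of these 3 passed the test, while CARS, SARS and YARS were called lower.

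TARS2, MARS2 and NARS2, for threonine, methionine and asparagine, were slightly below their LNCaP-EV means. TARS2 was at 66.0 and 57.2 CPM in LNCaP-EV and at 55.0 and 55.1 CPM in LNCaP-RRM2 (log2 fold change -0.16, SE 0.10, edgeR adjusted p = 0.219). MARS2 was at 64.0 and 57.5 CPM and then at 56.6 and 57.2 CPM (-0.10, SE 0.09, edgeR adjusted p = 0.406). NARS2 was at 42.2 and 44.1 CPM and then at 37.7 and 38.4 CPM (-0.18, SE 0.08, edgeR adjusted p = 0.131). In MARS2 the second LNCaP-EV library was close to both LNCaP-RRM2 libraries.

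PARS2 and FARS2, for proline and phenylalanine, had the lowest CPM values of the members. PARS2 was at 18.4 and 16.9 CPM in LNCaP-EV and at 14.4 and 14.9 CPM in LNCaP-RRM2 (log2 fold change -0.27, SE 0.11, edgeR adjusted p = 0.110). FARS2 was at 10.3 and 9.88 CPM and then at 7.89 and 7.45 CPM (-0.40, SE 0.13, edgeR adjusted p = 0.0574). Their LNCaP-RRM2 libraries lay below both LNCaP-EV libraries, as in 40.9% of all genes, and neither gene passed the test. AARS2, LARS2 and VARS2, for alanine, leucine and valine, had log2 fold changes between -0.22 and 0.01, and none passed the adjusted p.

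Setting each cytosolic gene against its mitochondrial partner in the same library removes library scaling. The ratio of the CPM values was lower in LNCaP-RRM2 in 14 of 17 pairs, and the median change was -0.55 on the log2 scale. CARS over CARS2 changed most, from log2 ratios of 1.81 and 2.00 in LNCaP-EV to 0.58 and 0.71 in LNCaP-RRM2. SARS over SARS2 went from 4.12 and 4.69 to 3.19 and 3.33, and YARS over YARS2 from 3.20 and 3.32 to 2.19 and 2.25. In these pairs the groups lay well apart. IARS over IARS2 had the smallest spread between the LNCaP-EV libraries, at 1.07 and 1.09 in LNCaP-EV, against 0.52 and 0.54 in LNCaP-RRM2.

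The ratio was not lower for arginine, valine and the alpha subunit for phenylalanine. RARS over RARS2 was at 2.60 and 2.46 in LNCaP-EV and at 2.56 and 2.58 in LNCaP-RRM2 on the log2 scale, since both genes were lower by similar amounts. The mean change was 0.02 for VARS over VARS2 and 0.40 for FARSA over FARS2. FARSB, which encodes the other subunit of the same enzyme as FARSA, gave a change of -0.22 against FARS2. Of the pairs, 4 share a gene (EPRS with EARS2 and PARS2, FARSA and FARSB with FARS2), so the 17 ratios are not independent of each other and were not tested.

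**Figure D3:**
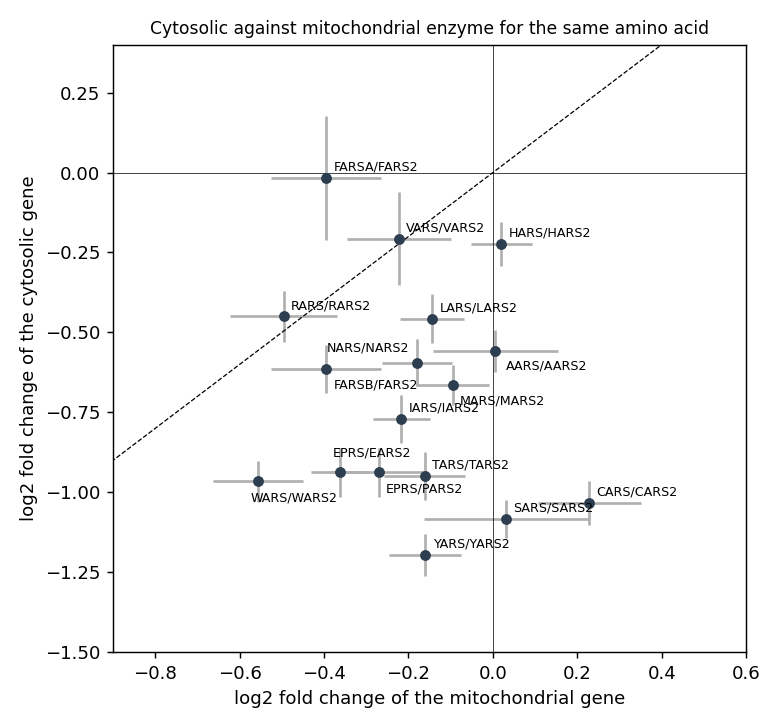
Log2 fold change of each cytosolic gene against that of the mitochondrial gene for the same amino acid, with SE bars; the dashed line marks equal change. Of the 17 pairs, 14 lie below the line, CARS/CARS2 the farthest from it, while FARSA/FARS2 lies above it and RARS/RARS2 and VARS/VARS2 lie close to it.

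HARS and HARS2 are partners that lie next to each other in the genome. By RefSeq they start head to head on chromosome 5 with 84 bases between the start of HARS (140691370, minus strand) and that of HARS2 (140691455, plus strand). HARS was at 108.7 and 102.6 CPM in LNCaP-EV and at 90.0 and 91.15 CPM in LNCaP-RRM2 (log2 fold change -0.22, SE 0.07, edgeR adjusted p = 0.0492). HARS2 was at 75.6 and 80.1 CPM and then at 78.4 and 79.4 CPM (0.02, SE 0.07, edgeR adjusted p = 0.841). HARS was thus just past the adjusted p limit and HARS2 was not. Their deposited spans overlap, so reads from the shared stretch could be assigned to either where counting ignores strand.

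The scaffold genes were lower at the adjusted p without passing the fold limit. AIMP1 was at 92.6 and 100.9 CPM in LNCaP-EV and at 75.7 and 76.9 CPM in LNCaP-RRM2 (log2 fold change -0.34, SE 0.08, edgeR adjusted p = 0.0190). AIMP2 was at 67.9 and 60.9 CPM and then at 44.7 and 43.5 CPM (-0.55, SE 0.09, edgeR adjusted p = 0.00821). The LNCaP-RRM2 libraries lay below both LNCaP-EV libraries in each gene, an order shown by 40.9% of all genes. AIMP2 passed the fold limit too, and was called lower at -0.60, with the GC trend removed. EEF1E1, the remaining scaffold gene of the complex, is not a member and had a log2 fold change of -0.60 (edgeR adjusted p = 0.00619). AIMP2 overlaps EIF2AK1 and AIMP1 overlaps TBCK in the deposited spans.

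The libraries of each group differed from each other with the GC content of the transcript. All genes were divided into 10 equal bins of GC content. The median log2 ratio of the first to the second LNCaP-EV library rose from -0.11 in the lowest bin to 0.67 in the highest. That of the LNCaP-RRM2 libraries rose from -0.05 to 0.27, and the median log2 fold change from -0.22 to 0.51. FARSA, VARS, AARS2, SARS2 and VARS2 had a GC content above 59%, and in them the first LNCaP-EV library exceeded the second by 0.30 to 0.60 on the log2 scale. Their log2 fold changes lay between -0.22 and 0.03 with SEs of 0.12 to 0.20. When the GC trend of each library was removed, the 5 genes had values from -0.73 to -0.35, and VARS and VARS2 were called lower.

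With the GC trend removed, all 20 cytosolic genes were lower at the adjusted p alone in edgeR, against 37.7% of all genes. Of these, 11 were called lower against 10.5% of all genes, and 9 of them were among the 11 named above. AARS and VARS entered and FARSB and NARS left. CARS2 moved from 0.23 to 0.01 and QARS from -0.0017 to -0.18. The cytosolic median was then -0.68, the mitochondrial median -0.33 and that of all genes -0.11. Of the 16 mitochondrial genes, 12 were lower at the adjusted p alone and VARS2 was called. The ratio of cytosolic to mitochondrial partner was lower in 14 of 17 pairs in this setting too, with a median change of -0.44.

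**Figure D4:**
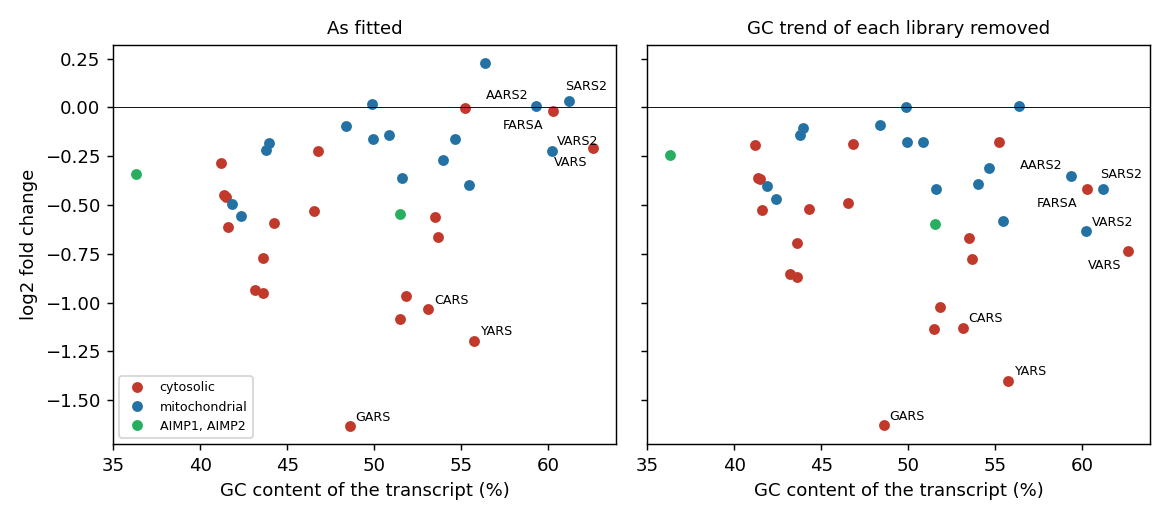
Log2 fold change of each member against the GC content of its transcript in percent, as fitted on the left and with the GC trend of each library removed on the right. The 5 genes above 59% GC move from between -0.22 and 0.03 to between -0.73 and -0.35, while GARS stays at -1.63.

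Genes around the synthetases were described from further lists. Of 30 ATF4 response genes outside the family, 18 were called lower against 7.96% of all genes, and the median log2 fold change was -0.76. None was called higher by edgeR, DESeq2 or limma-voom, and none was higher at an unadjusted p below 0.05 in the main fit. Of all genes, 17.8% were higher at the adjusted p alone. With the GC trend removed, 25 of the 30 were lower and 1 was higher at the adjusted p alone. Without the first or the second LNCaP-RRM2 library, the median of these genes was -0.78 and -0.70. ATF4 itself was at 622.7 and 633.2 CPM in LNCaP-EV and at 300.4 and 293.8 CPM in LNCaP-RRM2 (-1.08, SE 0.06, edgeR adjusted p = 0.00176). ASNS, the asparagine synthetase, and PSAT1, of serine synthesis, had the smallest p in the list, at -1.89 and -1.69. DDIT3, a stress response factor whose span overlaps MARS, was at 28.2 and 32.1 CPM and then at 31.7 and 33.5 CPM, and it did not pass the test.

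The eIF2 kinase pathway, which raises ATF4 translation, had calls in both directions. Of its 16 tested genes, 3 were called lower against 7.96% of all genes and 2 higher, the same share as the 12.5% of all genes, with a median of -0.29. EIF2S1 and EIF2S2, subunits of the initiation factor eIF2, had log2 fold changes of -0.75 and -0.73. EIF2AK3, the kinase PERK, was at 41.7 and 47.3 CPM in LNCaP-EV and at 69.0 and 68.7 CPM in LNCaP-RRM2 (0.63, SE 0.09, edgeR adjusted p = 0.00619). PPP1R15A, which directs eIF2 dephosphorylation, was at 5.79 and 4.79 CPM and then at 7.59 and 8.77 CPM (0.63, SE 0.17, edgeR adjusted p = 0.0330), and it was not called with the GC trend removed or without either LNCaP-RRM2 library. EIF2AK3 was not called without the first LNCaP-EV library or without either LNCaP-RRM2 library.

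Steps before and after charging were read against the 7.96% of all genes called lower. Of 8 genes for cytosolic tRNA delivery and elongation, 2 were called lower, above that share, with a median of -0.23. XPOT, which exports tRNA from the nucleus, was at 449.8 and 491.7 CPM in LNCaP-EV and at 273.8 and 286.4 CPM in LNCaP-RRM2 (-0.75, SE 0.07, edgeR adjusted p = 0.00297), and the other was EEF1E1. XPOT was not called without the first LNCaP-RRM2 library. Of 15 genes for tRNA processing and CCA addition, RPP30, an RNase P subunit, was called lower at -0.61, a share close to that of all genes, and the median was -0.33. The call of RPP30, like that of EEF1E1, held in 4 of 14 alternatives. Of 8 mitochondrial charging and elongation genes, none was called by the main edgeR fit or limma-voom and 1 was called higher by DESeq2. This gene, TUFM, was also called higher in edgeR with DESeq2 size factors, total counts, upper-quartile factors or the stricter filter. At the adjusted p alone, 3 of the 8 were lower and 1 was higher, against 24.4% and 17.8% of all genes. Their median was -0.26.

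Of 9 MYC family genes, a list of MYC, its partners and its antagonists, none was called by the main edgeR fit, DESeq2 or limma-voom. MXD4, at a log2 fold change of 0.64, was called higher in edgeR with DESeq2 size factors, upper-quartile factors, either other filter or the replicate block. It was not called with total counts or with the GC trend removed, where it was at 0.08. At the adjusted p alone, 1 of the 9 genes was lower and 2 were higher, against 24.4% and 17.8% of all genes. The median of the 9 genes was 0.34, and it was 0.08 with the GC trend removed. MYC was at 162.5 and 140.4 CPM in LNCaP-EV and at 208.9 and 200.5 CPM in LNCaP-RRM2 (0.43, SE 0.09, edgeR adjusted p = 0.0145).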

How the data were processed

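RNA-seq of 2 LNCaP-EV and 2 LNCaP-RRM2 libraries was analysed, grouped by the sample titles. According to the methods, reads were paired-end and Partek Flow was used, while aligner, annotation, build and use of strand are not stated. The estimated counts per gene were deposited unscaled by the authors, 56.1% to 58.1% of them were whole, and all were rounded before testing. Of 16246 symbols found in GENCODE v29, 99.9% overlapped their GRCh38 position there. Near-identical and overlapping genes are uncertain.

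Counts were filtered (filterByExpr), scaled by TMM and tested with the quasi-likelihood F-test of edgeR 4.0.16 under R 4.3.3 without covariates, with Benjamini-Hochberg adjustment over 15162 genes. A call needed an adjusted p below 0.05 and a fold above 1.5. The code was tested on simulated counts. Replicates were not duplicates of each other, with a chi-square over its degrees of freedom of 23.0 in LNCaP-EV and 7.76 in LNCaP-RRM2. Log2 ratios used a prior count of 2, and GC content and length came from the longest GENCODE v29 coding transcript. Members, gene lists and tests were chosen with earlier results of these data known. Described in full are called members, their partners, AIMP1 and AIMP2, with up to 2 called genes per further list and direction. EEF1E1, MYC, ATF4 and DDIT3 were added for their roles, and 1 further list is not reported here. Alternatives were DESeq2 1.42.0 size factors and Wald test, limma-voom (limma 3.58.1), total-count and upper-quartile scaling, 2 other filters, no fold limit, a replicate block, GC trend removal (lowess span 0.3), a prior count of 0.5 for the ratios, and leaving out each library. Promoter sequences are from RefSeq.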

Additional observations from a re-analysis of the deposited data

How the results depend on the processing

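GARS, YARS, SARS, CARS, WARS, TARS, EPRS and IARS were called lower in all 14 refits; MARS held in 11, and FARSB and NARS in 4. The leave-one-out refits kept the 15162 genes and took the spread from the remaining group, so a lone library was assumed to vary like it. Leaving out each library gave 362 to 3003 genes called higher and 234 to 1465 lower, 8 to 12 cytosolic and 0 to 2 mitochondrial genes called lower, cytosolic medians of -0.64 to -0.48, mitochondrial medians of -0.17 to -0.10, and a difference of medians of -0.53 to -0.36. The stricter filter gave 612 lower calls. Without a fold limit there were 3695, with 17 cytosolic and 4 mitochondrial.

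The cytosolic and mitochondrial medians were -0.54 and -0.11 with total counts, -0.53 and -0.092 with upper-quartile factors, -0.51 and -0.075 with the stricter filter, and -0.68 and -0.33 with the GC trend removed, with 1 mitochondrial gene called. Whether same-numbered libraries of the groups were handled together is not stated. The log2 differences between first and second library correlated at 0.62 between the groups across genes. A replicate block gave 2346 higher and 1255 lower calls and the same 11 cytosolic genes. With the replicate block and GC removal together, the medians were -0.68 and -0.33, with 1 mitochondrial gene called.

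Signs changed for genes near 0. FARSA was at 0.0322 (DESeq2 size factors), 0.0502 (total counts), 0.0663 (upper quartile), 0.0002 (no filter), 0.083 (stricter filter), 0.0327 (DESeq2 Wald test), 0.0048 (limma-voom) and 0.0095 (replicate block), and from -0.19 to 0.32 leaving out each library. QARS was at 0.0426, 0.0639, 0.0782, 0.0103, 0.0945 and 0.0425 in the first 6 of these, and from -0.029 to 0.0799 leaving out each library. Leaving out each library took VARS from -0.31 to 0.0256, AARS2 from -0.0896 to 0.23, SARS2 from -0.13 to 0.34 and HARS2 from -0.0164 to 0.15. With the GC trend removed, AARS2 was at -0.35 and SARS2 at -0.42, and with the block as well at -0.35 and -0.42. MARS2 was at 0.0012 with the stricter filter. The ratio of VARS to VARS2 changed by -0.0991 and that of FARSB to FARS2 by 0.0561 with the GC trend removed. Leaving out each library took the change in RARS over RARS2 from -0.0264 to 0.11 and in VARS over VARS2 from -0.0378 to 0.0816. The causes were not tested. The fewest counts of a member in a library were 203, in FARS2, and its SE was 0.13 against 0.07 for the more abundant EARS2.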
